A study of Mus musculus with 156 samples.

Results

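The genes of insulin signalling and of its FOXO branch were followed through the striatum of mice after a single injection of 1 of 9 psychoactive drugs. The 9 genes, *Irs1*, *Irs2*, *Insr*, *Igf1r*, *Pik3r1*, *Foxo1*, *Foxo3*, *Depp1* (listed as 8430408G22Rik in older annotations) and *Pdk4*, were chosen by name, with earlier results of these data known. Every probe annotated to them was kept, which gave 20 probes of the 45279 tested, or 9 of 19057 named genes. Male C57BL/6J mice, 8 to 10 weeks old by the methods and 6 to 10 weeks old by the sample labels, received tranylcypromine, mianserin or bupropion (20 mg/kg each), buspirone or hydroxyzine (10 mg/kg each), diazepam (5 mg/kg), clozapine (3 mg/kg), haloperidol (1 mg/kg) or risperidone (0.5 mg/kg) intraperitoneally, and striatum (rostral caudate putamen with nucleus accumbens) was taken 1, 2, 4 or 8 h later. Each drug and time had 3 arrays of Illumina MouseWG-6 v2, and the RNA on an array was pooled from 2 mice, with the arrays of a group described in the methods as biological replicates. Saline controls made up 24 arrays, controls with 1% Tween 80, in which clozapine, diazepam, haloperidol and risperidone were suspended, 12 arrays, and naive mice another 12. The 156 arrays lay on 2 sets of chips. The first set (108 arrays) held tranylcypromine, mianserin, bupropion, risperidone, haloperidol, clozapine, Tween 80, replicates 1 to 3 of saline and the naive mice. The second (48 arrays) held the 3 other drugs with replicates 4 to 6 of saline, so diazepam was compared with saline although it had been suspended in Tween 80. A change is the mean log2 signal of the 3 drug arrays minus that of the vehicle arrays of the same time and chip set (6 arrays of saline and Tween 80 in the first set, 3 of saline in the second), and a change of 1 is a doubling. A probe was called where limma's moderated F test of its 4 changes together had an adjusted p under 0.05 (Benjamini-Hochberg over all probes, a false discovery rate of 5%).

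Insulin and IGF1 act through receptor tyrosine kinases, the insulin receptor (*Insr*) and the IGF1 receptor (*Igf1r*). These phosphorylate the adaptor proteins IRS1 and IRS2, which recruit phosphoinositide 3-kinase through its regulatory subunit p85 alpha (*Pik3r1*) and so activate the kinase AKT. AKT phosphorylates the transcription factors FOXO1 and FOXO3 and holds them in the cytoplasm, and when the signal falls they enter the nucleus and switch on genes such as *Irs2* itself, *Pdk4*, whose product inhibits the pyruvate dehydrogenase complex, and *Depp1*, which was described as a FOXO target in human cells. *Pdk4* and several other genes of this kind also respond to glucocorticoids and fasting, and in the brain insulin acts on neurons of feeding and reward circuits, the striatum among them.

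The arrays carried the tissue's own signature. The 9 medium spiny neuron markers with a probe, among them *Drd1*, *Drd2*, *Ppp1r1b* and *Rgs9*, had mean signals between the 89.4th and the 99.8th percentile of all probes. The median correlation between same-condition arrays was 0.987, and no array was a copy of another. Fewer cells of a type and less RNA per cell cannot be told apart in such tissue.

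The promoters of the 3 genes that moved, *Irs2*, *Depp1* and *Pdk4*, and of *Irs1*, the adaptor that did not pass a test, are shown to let their start regions be compared. These are the 120 bases before the annotated start, written 5′ to 3′ on the gene's strand, from RefSeq on GRCm38.p6. Capitals mark TGTTTTG, a form of the insulin response sequence, or TGTTTAC, a form of the FOXO motif, on either strand. Only these exact letters were searched for.
Irs2: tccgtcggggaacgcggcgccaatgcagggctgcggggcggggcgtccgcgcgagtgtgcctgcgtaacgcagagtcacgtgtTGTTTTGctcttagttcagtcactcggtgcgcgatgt
Irs1: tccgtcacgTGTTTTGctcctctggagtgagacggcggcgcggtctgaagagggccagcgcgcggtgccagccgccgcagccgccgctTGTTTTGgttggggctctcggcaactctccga
Depp1: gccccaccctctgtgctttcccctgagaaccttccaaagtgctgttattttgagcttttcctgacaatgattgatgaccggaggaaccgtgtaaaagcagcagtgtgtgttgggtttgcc
Pdk4: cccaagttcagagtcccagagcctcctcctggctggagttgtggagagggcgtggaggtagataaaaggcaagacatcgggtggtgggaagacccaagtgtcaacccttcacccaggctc
The *Irs2* stretch is chr8:11008930-11009049 on the minus strand and holds TGTTTTG from -37 to -31, counted from the base before the start. The *Irs1* stretch, chr1:82291440-82291559 on the minus strand, holds it at -111 to -105 and again at -32 to -26. The stretches of *Depp1*, chr6:116650564-116650683 on the plus strand, and of *Pdk4*, chr6:5496279-5496398 on the minus strand, hold neither of these exact strings. Over the 250 bases before the start, TGTTTTG was found in 5.56% and TGTTTAC in 3.17% of 32851 promoters, both strands counted. Of the members, 8 of 9 had a promoter in the table (9 promoters, as *Pik3r1* had a pair). In those 9 windows TGTTTTG was found in *Irs2* and *Irs1* and TGTTTAC in none. The string TGTTCT, a part of the glucocorticoid receptor motif that was present in 16.1% of promoters, was also found in none. A match is a description of the letters in this window. Sites that vary from these letters and whole glucocorticoid response elements were not searched for, so a missing match does not show that a site is absent.

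Of the 9 genes, *Depp1*, *Pdk4* and *Irs2* passed the test, all upward, *Depp1* and *Pdk4* after tranylcypromine, mianserin and risperidone and *Irs2* after tranylcypromine and mianserin. The share of all probes called was 1.59% after tranylcypromine, where 3 of the 20 member probes were called, 3.26% after mianserin, with 3 members, and 1.22% after risperidone, with 2. After haloperidol (0.13% of all probes), clozapine (0.0508%), diazepam (0.00221%), buspirone (0.00442%), bupropion (0%) and hydroxyzine (0%) limma called no member. At an unadjusted p under 0.05 the F test held 2 of the 20 member probes after haloperidol, against 6.82% of all probes, 1 after clozapine (4.45% of all probes) and 1 after bupropion (4.43%). It held 0 members after diazepam (13.1% of all probes), buspirone (3.96%) and hydroxyzine (4.92%). In single-time tests 13 of 720 member comparisons were called, against 0.197% of all comparisons, and 12 of the 13 belonged to the same 3 genes. In the first chip set the 3 drug arrays lay above all 6 vehicle arrays in 24 of 480 member comparisons (5%), against 1.62% over all probes, and below all of them in 7 (1.46%), against 1.56%. In the two-way model of drug and time, where naive mice counted as a level of drug, the effect of drug was called for 3 member probes, against 2.2% of all probes. They were those of *Depp1*, *Pdk4* and *Irs2*. Since the members were chosen with earlier results of these data known, these shares describe them and are not a test of the set.

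**Figure D1:**
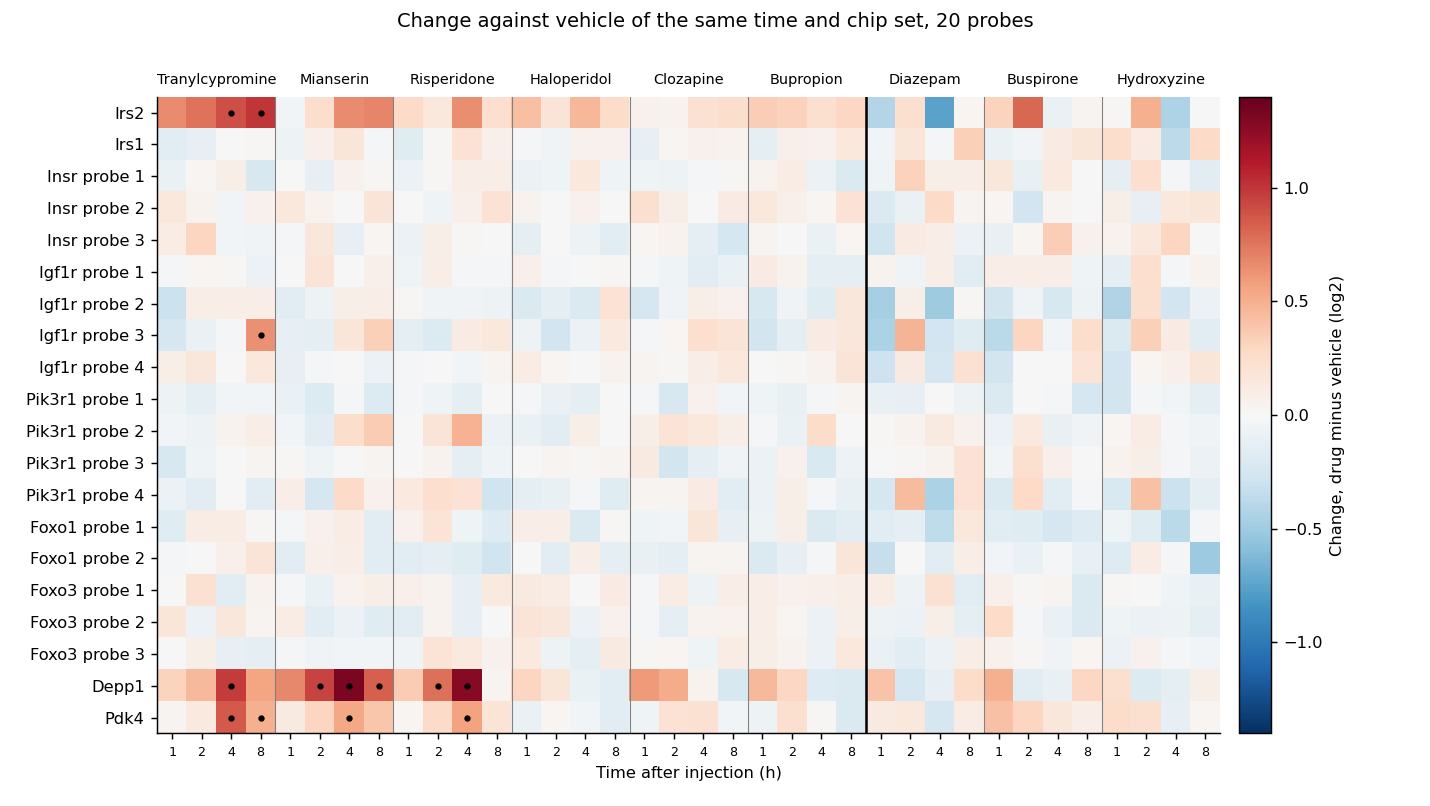
Change in log2 signal, drug minus vehicle of the same time and chip set, for the 20 probes (rows) at 1, 2, 4 and 8 h after each of 9 drugs (columns), with dots where limma's test of that time was called at 5% FDR. The 13 dots lie on *Irs2*, *Depp1*, *Pdk4* and 1 probe of *Igf1r*, and the heavy line parts the 2 chip sets.

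*Depp1* (ILMN_2894211, GRCm38.p6 chr6:116650684-116652847) is an inducible regulator of autophagy and oxidative stress responses, and it made the largest rises of the 9 genes. At 4 h its log2 signal was 9.90, 9.41 and 9.55 on the mianserin arrays, against a lowest of 8.17, a median of 8.30 and a highest of 8.43 on the 6 vehicle arrays. All 3 mianserin arrays lay above every vehicle array. The change was 1.32 (SE 0.163), a 2.49-fold rise, with an adjusted p of 4.5e-14 in limma's F test over the 4 times.

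Risperidone arrays at 4 h stood at 9.57, 9.66 and 9.51, against 8.17 to 8.43 in vehicle, a change of 1.28 (SE 0.163) or 2.42-fold (F test adjusted p = 3.1e-09). Tranylcypromine arrays at 4 h had 9.31, 9.13 and 9.41, a change of 0.98 (SE 0.163) or 1.97-fold (F test adjusted p = 1.5e-06). The 9 arrays of these drugs at 4 h were thus all above the 6 vehicle arrays, with no overlap.

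The other times filled in the course of *Depp1* after each drug. After mianserin the change at 1 h was 0.67, with 9.20, 8.83 and 9.32 on the drug arrays against 8.21 to 8.69 in vehicle (adjusted p = 0.19 for that time). It rose by 0.95 at 2 h (adjusted p = 0.00015) and, after the peak at 4 h, stood 0.83 above vehicle at 8 h (adjusted p = 8e-04), where the 3 mianserin arrays spread widely at 10.05, 8.97 and 8.55 and overlapped the vehicle range of 7.87 to 8.79. Without mianserin replicate 1, the highest of these, the change at 8 h was 0.40 and was not called (adjusted p = 0.32).

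After risperidone *Depp1* rose by 0.77 at 2 h (9.21, 9.02 and 9.12, against 8.27 to 8.39 in vehicle, adjusted p = 0.0068) and lay among the vehicle arrays at 8 h. The call at 2 h was lost without risperidone replicate 1 (0.73, adjusted p = 0.066) or replicate 3 (0.77, 0.09). At 8 h the risperidone arrays had 8.21, 8.64 and 8.32, and the change was 0.04. The vehicles differed there, with 8.79, 8.42 and 8.63 on Tween 80 arrays against 8.10, 8.32 and 7.87 on saline arrays, and against Tween 80 alone the change was -0.22. The difference between the times was itself called (limma F test of 3 differences, adjusted p = 0.007), and it was the one such call among the members, against 0.203% of all probes for risperidone. With median scaling of the arrays this call was lost (adjusted p = 0.075). The drug by time interaction over all drugs, with naive mice as a further level, was called for *Depp1* too (adjusted p = 7.4e-05), the one member called against 0.261% of all probes.

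After tranylcypromine the changes of *Depp1* were 0.31 at 1 h, 0.45 at 2 h and 0.55 at 8 h, and at a single time that of 4 h alone was called (adjusted p = 0.81, 0.5 and 0.063 at 1, 2 and 8 h). The differences between times were not called after tranylcypromine (adjusted p = 0.46) or mianserin (0.48). The 8 h arrays were 9.11, 9.38 and 8.22, so that the third array lay inside the vehicle range while the others lay above it.

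The changes of *Depp1* after the remaining drugs of the first chip set were not called. Clozapine arrays at 1 h had 9.04, 8.89 and 9.20, above all vehicle arrays (8.21 to 8.69), a change of 0.60, and at 2 h 8.60, 8.68 and 9.30, again above all of them (8.27 to 8.39), a change of 0.52. At 4 and 8 h the clozapine changes were 0.05 and -0.23. The F test over the 4 times was not called (adjusted p = 0.18, unadjusted p = 0.00015). Bupropion had a change of 0.45 at 1 h, with all 3 arrays above vehicle, and -0.20 at 8 h, and haloperidol ran between 0.30 at 1 h and -0.16 at 8 h. Among the drugs of the second set the largest was buspirone at 1 h, 0.49 (SE 0.198), with 8.62, 8.82 and 8.76 on the drug arrays against 7.87, 8.39 and 8.46 on saline (adjusted p = 0.74).

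**Figure D2:**
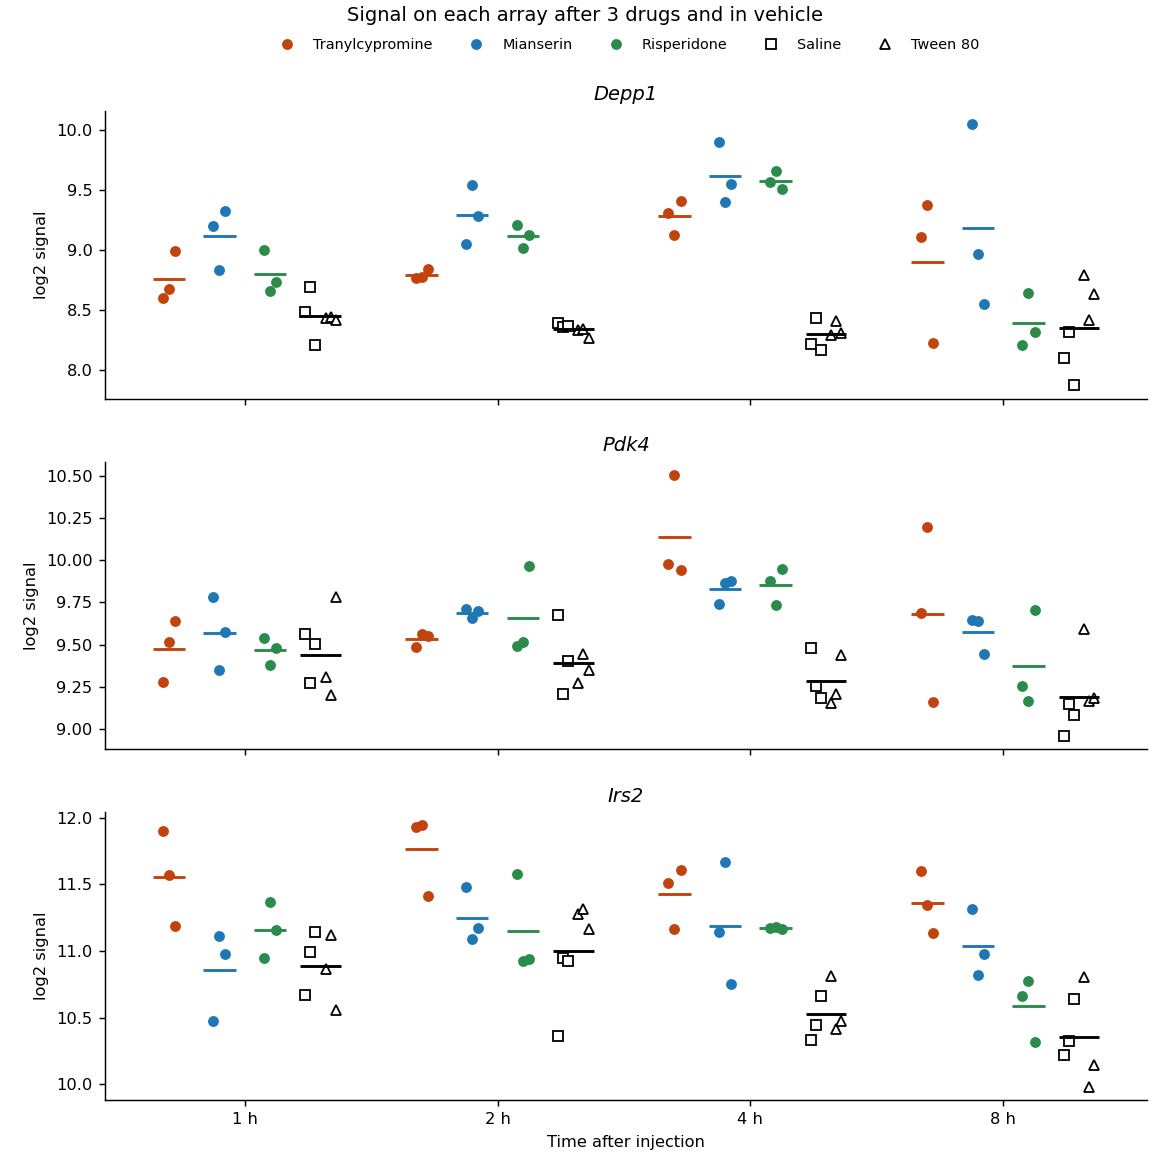
Log2 signal of *Depp1*, *Pdk4* and *Irs2* on each array of the first chip set at 1, 2, 4 and 8 h, with coloured points for 3 drugs, open squares for saline, open triangles for Tween 80, and bars for means. At 4 h the 9 drug arrays of *Depp1* lie between 9.13 and 9.90 and the 6 vehicle arrays between 8.17 and 8.43.

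*Pdk4* (ILMN_1259322, chr6:5483351-5496278), pyruvate dehydrogenase kinase 4, which turns fuel use away from glucose, was called after the same 3 drugs, with its largest change at 4 h each time. The tranylcypromine arrays at 4 h had 9.98, 10.51 and 9.94, against a lowest of 9.15, a median of 9.23 and a highest of 9.48 in vehicle. The 3 drug arrays were above all 6 vehicle arrays, and the change was 0.85 (SE 0.138), 1.81-fold, with an F test adjusted p of 6.9e-06.

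Smaller changes were measured after risperidone and mianserin at the same time. Risperidone arrays had 9.88, 9.74 and 9.95, a change of 0.57 or 1.48-fold (F test adjusted p = 0.038). Mianserin arrays had 9.74, 9.86 and 9.88, a change of 0.54 or 1.46-fold (F test adjusted p = 0.0034). Both groups lay above the highest vehicle array, at 9.48. The risperidone call was lost in 6 of the 9 fits without 1 replicate, those without risperidone replicate 1 or 3, Tween 80 replicate 1 or 2 or saline replicate 2 or 3, while the change stayed between 0.52 and 0.63 in all 9 (adjusted p up to 0.52). With each array scaled to the same median in place of quantile normalization, all 3 calls of *Pdk4* were lost, at changes of 0.75 after tranylcypromine (adjusted p = 0.086), 0.51 after mianserin (0.078) and 0.43 after risperidone (0.65). The risperidone call was also lost against Tween 80 alone, with one spread for both chip sets and with vehicles of both chip sets.

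No change of *Pdk4* before 4 h was called after these drugs. At 1 h the changes after the 3 drugs lay between 0.03 and 0.13, and at 2 h between 0.14 and 0.30. At 8 h tranylcypromine stood 0.49 above vehicle (adjusted p = 0.041), with 9.69, 10.20 and 9.16 on its arrays against 8.96 to 9.59 in vehicle. The second array was the highest and the third lay within the vehicle range, in the same order as for *Depp1* on these arrays. Without the second array the change at 8 h was 0.24 (adjusted p = 0.61), and the call at that time was also lost without tranylcypromine replicate 1 (0.49, 0.15), Tween 80 replicate 2 (0.46, 0.11) or 3 (0.46, 0.089) and saline replicate 1 (0.47, 0.1) or 3 (0.50, 0.067). The times within tranylcypromine differed at an unadjusted p of 0.00021, which missed the threshold after adjustment (0.051). In the second chip set the largest change of *Pdk4* was 0.41 at 1 h after buspirone, with 9.75, 9.89 and 9.89 on the drug arrays against 9.58, 9.39 and 9.34 on saline (adjusted p = 0.74).

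**Figure D3:**
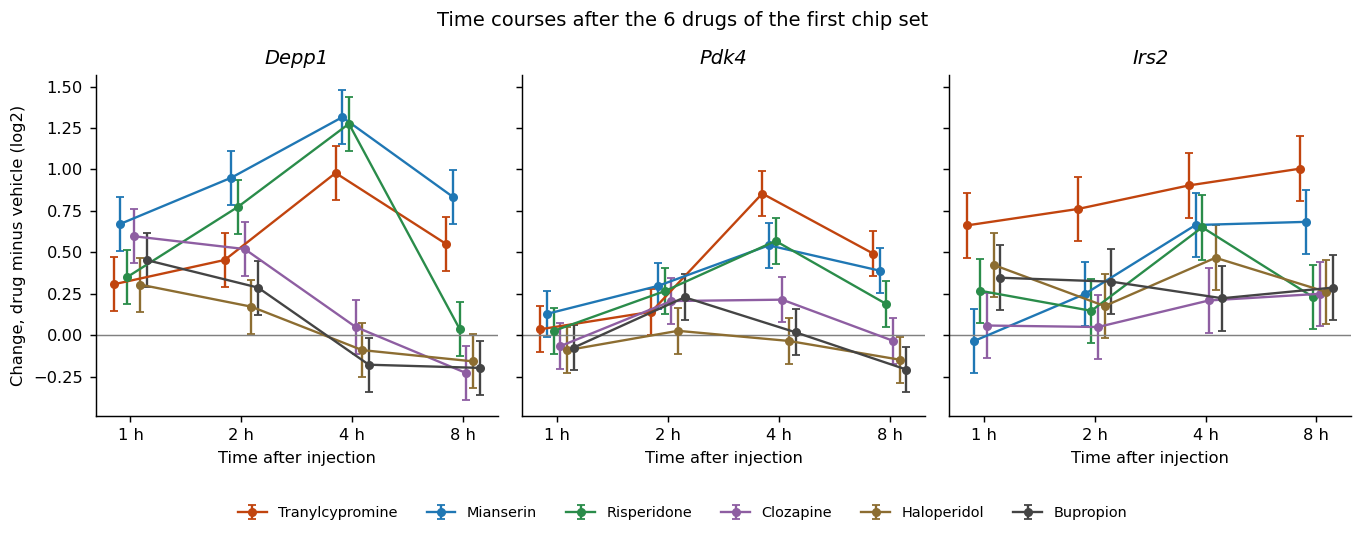
Change in log2 signal, drug minus vehicle, with limma's standard error as bars, for *Depp1*, *Pdk4* and *Irs2* at 1, 2, 4 and 8 h after the 6 drugs of the first chip set. The lines of mianserin, risperidone and tranylcypromine for *Depp1* reach 1.32, 1.28 and 0.98 at 4 h, and the other 3 lie between -0.18 and 0.05 there.

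*Irs2* (ILMN_3144164, chr8:10984681-11008929), the adaptor whose gene FOXO factors induce in liver, was higher after tranylcypromine than in vehicle on every array of every time. At 8 h the tranylcypromine arrays had 11.60, 11.34 and 11.13, against a lowest of 9.98, a median of 10.28 and a highest of 10.81 in vehicle. The change was 1.00 (SE 0.195), 2.01-fold, with an F test adjusted p of 2.5e-08. At 1, 2 and 4 h the changes were 0.66, 0.76 and 0.90, and at each of the 4 times all 3 tranylcypromine arrays lay above all 6 vehicle arrays. In the tests of a single time the changes at 4 h (adjusted p = 0.005) and 8 h (0.00056) were called, and those at 1 h (0.29) and 2 h (0.073) were not. With median scaling the changes at 4 and 8 h were 0.72 and 0.74 and neither was called at its time (adjusted p = 0.15 and 0.069), and the 4 h call was lost without tranylcypromine replicate 1 (0.86, 0.064) or 3 (0.81, 0.097). The differences between the times were not called (adjusted p = 0.96).

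The vehicle level that these changes are measured against moved with time. In vehicle *Irs2* averaged 10.36 ± 0.31 at 8 h and 10.89 ± 0.24 at 1 h (SD, n = 6 each), a difference of -0.54. Time in vehicle was called for this gene (F test adjusted p = 0.043), the one member called against 0.583% of all probes. This call was lost with median scaling (adjusted p = 0.3), one spread for both chip sets (0.28) and chip as a fixed block (0.15). In tranylcypromine arrays the mean was 11.36 at 8 h and 11.55 at 1 h.

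After mianserin *Irs2* was close to vehicle at 1 h (change -0.04) and higher at 4 h (0.66) and 8 h (0.68). The 8 h arrays had 11.32, 10.82 and 10.98, all above the highest vehicle array, 10.81, the second of them narrowly. The F test over the 4 times was called (adjusted p = 0.0089), and the call was lost without mianserin replicate 1 (change 0.54, adjusted p = 0.14) or replicate 2 (0.79, 0.064), with median scaling (0.58, 0.051) and against the vehicles of both chip sets (0.40, 0.71). Risperidone arrays at 4 h had 11.17, 11.18 and 11.17, above the vehicle arrays (10.33 to 10.81), a change of 0.65 that was not called (F test adjusted p = 0.25). Haloperidol at 4 h had 10.84, 11.25 and 10.88, also above vehicle, a change of 0.47 (0.51).

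Saline controls of *Irs2* differed between the chip sets. At 8 h saline replicates 4 to 6 of the second set had 11.20, 11.05 and 11.39, against 10.22, 10.33 and 10.64 for saline replicates 1 to 3 of the first, without overlap. This was not tested. Means of some marker lists also differed between the sets, by smaller amounts and not all in the same direction. At 8 h the mean of 8 microglial markers was 10.26 to 10.46 on second-set saline and 10.53 to 10.59 on first-set saline. For 12 endothelial markers it was 9.91 to 9.93 and 9.66 to 9.73, while 7 oligodendrocyte markers overlapped (13.64 to 13.83 and 13.79 to 13.86). In the second set the standard error of an *Irs2* change was 0.313, and the changes ran between -0.75 at 4 h after diazepam and 0.80 at 2 h after buspirone, neither of them called (adjusted p = 0.52 and 1). With the vehicles of both sets combined, the *Irs2* change after tranylcypromine at 8 h was 0.72 and the F test was not called (adjusted p = 0.12). That fit had no term for chip set, so a difference between the sets enters the change.

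**Figure D4:**
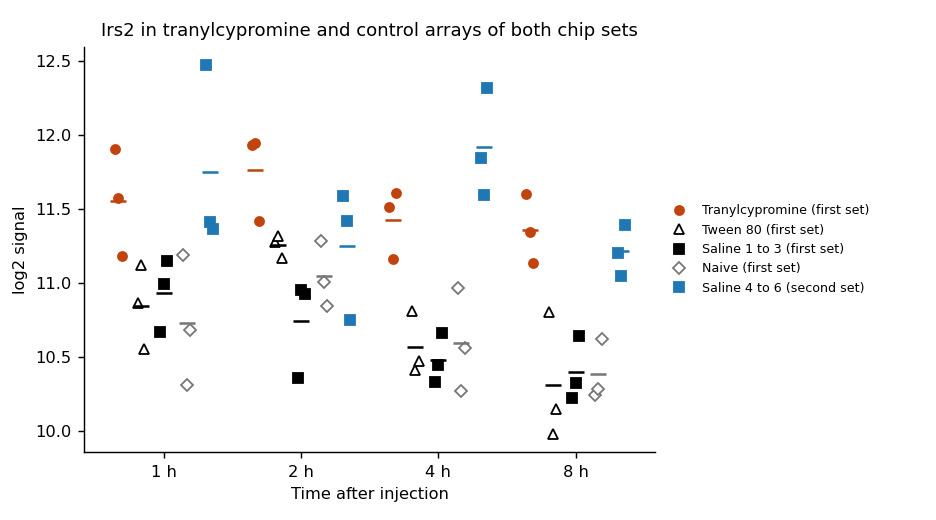
Log2 signal of *Irs2* on each array at 1, 2, 4 and 8 h after tranylcypromine and in the control groups, with bars for means of 3 arrays. The tranylcypromine arrays lie above the saline, Tween 80 and naive arrays of the same chip set at 4 and 8 h, where saline of the second set lies higher than saline of the first.

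Which chip an array lay on was entered as a block, since arrays of one chip deviated together (mean correlation 0.237). With chip as a fixed block all 8 calls stood, with changes of 0.88 for *Irs2*, 0.90 for *Depp1* and 0.80 for *Pdk4* after tranylcypromine, and 1.26 for *Depp1* after mianserin and 1.46 after risperidone.

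The drugs were also compared with each other, in 15 pairs of the first set and 3 of the second. Doses were equal among tranylcypromine, mianserin and bupropion and between buspirone and hydroxyzine, and differed in the other pairs. Of 300 member tests in the first set 17 were called, against 0.677% of all tests, 9 of them for *Depp1*, 5 for *Pdk4* and 3 for *Irs2*.

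At the shared dose of 20 mg/kg, tranylcypromine stood above bupropion in all 3 genes. For *Irs2* the difference was 0.72 at 8 h (F test adjusted p = 0.023), for *Depp1* 1.16 at 4 h (6.8e-06) and for *Pdk4* 0.84 at 4 h (4.1e-05). Mianserin stood above bupropion in *Depp1*, by 1.49 at 4 h (6.9e-11), and in *Pdk4*, by 0.60 at 8 h (0.011). Between tranylcypromine and mianserin no member was called, although *Irs2* was 0.70 higher at 1 h (adjusted p = 0.08) and *Depp1* 0.50 lower at 2 h (0.13) after tranylcypromine.

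Among the antipsychotics, risperidone stood above haloperidol in *Depp1* by 1.37 at 4 h (F test adjusted p = 2.7e-06) and above clozapine by 1.23 (0.0014). Between mianserin and risperidone *Depp1* differed by 0.80 at 8 h and by 0.04 at 4 h, which was not called (adjusted p = 0.16). *Irs2* was higher after tranylcypromine than after risperidone (0.77 at 8 h, 0.036) and clozapine (0.75 at 8 h, 0.00076). Haloperidol and clozapine were not told apart in *Depp1* (adjusted p = 0.91), *Pdk4* (0.92) or *Irs2* (0.92).

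The receptors, the kinase subunit and the FOXO genes themselves gave 17 probes for 6 genes, and no F test was called. Of their 612 comparisons with vehicle 24 had an unadjusted p under 0.05, against 6.28% of the comparisons over all probes. At a single time 1 of the 612 was called, close to the share of 0.197% over all probes. The called one was *Igf1r* (ILMN_1249824, chr7:67952257-68233668) at 8 h after tranylcypromine, with 11.38, 10.84 and 10.90, against a lowest of 10.19, a median of 10.36 and a highest of 10.63 in vehicle. The change was 0.64 (SE 0.156, adjusted p = 0.012 for that time, 0.07 for the F test). The other 3 *Igf1r* probes had changes of -0.08, 0.09 and 0.15 at that time, each with drug arrays inside the vehicle range. The call was lost with chip as a fixed block (0.37, adjusted p = 0.36), with median scaling (0.38, 0.21), with vehicles of both chip sets (0.27, 1) and without tranylcypromine replicate 1 (0.47, 0.25).

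*Pik3r1* (chr13:101680761-101768217) had its largest change at 4 h after risperidone, 0.48 on ILMN_2473531, where all 3 arrays (11.92 to 11.97) lay above vehicle (11.20 to 11.73) without a call (adjusted p = 0.28). The 3 other probes of this gene overlapped vehicle there, with changes between -0.13 and 0.21. A pair of them, ILMN_1249335 and ILMN_3040050, lay at the percentiles 3.92 and 2.44 of mean signal, where an array measures little. In the first chip set the changes of *Insr* (3 probes, chr8:3150922-3279649) lay between -0.25 and 0.30 and those of *Irs1* (1 probe, chr1:82233105-82291439) between -0.17 and 0.21. *Foxo1* (2 probes, chr3:52268337-52350109) ran between -0.28 and 0.19, and *Foxo3* (3 probes, chr10:42181845-42276695) between -0.17 and 0.21. Their standard errors in that set ran from 0.0905 to 0.131. By percentile of mean signal the *Foxo3* probes lay at 19.9, 50.3 and 18.6 and the *Irs1* probe at 53.1. The *Insr* probes lay at 92.3, 50.1 and 35.5 and the *Foxo1* probes at 67.7 and 86.1. On the dim probes a narrow range does not show that the gene was steady. In the second set, where standard errors were larger, *Foxo1* reached -0.51 at 8 h after hydroxyzine (unadjusted p = 0.018, adjusted p = 1), *Igf1r* -0.50 at 4 h after diazepam, *Insr* 0.35 at 4 h after buspirone and *Irs1* -0.36 at 4 h after hydroxyzine, none of them called.

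Vehicle and naive mice were compared to see what injection did to these genes. No member was called, nor was any probe (0%), and at an unadjusted p the values for *Depp1*, *Pdk4* and *Irs2* were 0.24, 0.52 and 0.92. *Depp1* in vehicle minus naive arrays was 0.23 at 1 h and 0.29 at 8 h.

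The courses most like those of the 3 genes, by Pearson correlation over the 36 changes, were found among all named genes. They are a description, since changes of one time share vehicle arrays. For *Depp1* they were *Nfkbia*, the inhibitor of NF-kappa B (r = 0.87), *Arrdc2* (0.86) and *Ddit4*, an inhibitor of mTORC1 (0.83). For *Pdk4* they were *Wbp1l* (0.77), *Fkbp5*, a co-chaperone of the glucocorticoid receptor (0.77), and *Dennd3* (0.76). For *Irs2* they were *Rasl11a* (0.81), *Ptbp1*, a splicing regulator (0.81), and *Tent5a* (0.81). Among the 3 genes, *Depp1* and *Pdk4* had r = 0.66, *Irs2* and *Pdk4* 0.58 and *Irs2* and *Depp1* 0.35.

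Other genes known as FOXO targets were measured with 1 probe each, all 24 of a list, of which several are also known targets of p53 or of the glucocorticoid receptor. After tranylcypromine 5 rose and 1 fell, after mianserin 4 rose and 2 fell, and after risperidone 3 rose and 1 fell, against the 1.59%, 3.26% and 1.22% of all probes given above. Each gene was represented by its probe of highest mean signal, while all probes include many dim ones. Where only probes above the median signal were tested, the shares called after these drugs were higher, at 3.69%, 8.6% and 3.2%. This list too was chosen with earlier results of these data known, so the counts are a description. *Cdkn1a*, a cell cycle inhibitor, rose after tranylcypromine (2.16 at 4 h, limma adjusted p = 3.3e-28), mianserin (2.59 at 8 h, 1.1e-29) and risperidone (2.25 at 4 h, 4.9e-23). *Txnip*, which curbs glucose uptake, rose by 0.93, 1.84 and 1.58 at 4 h after tranylcypromine, mianserin and risperidone, and *Pnpla2*, a triglyceride lipase, by 1.07 at 4 h, 1.77 at 8 h and 1.57 at 4 h. After clozapine 2 rose, *Cdkn1a* (1.32 at 4 h) and *Txnip* (0.93 at 2 h), and after buspirone *Cdkn1a* alone (0.87 at 2 h, adjusted p = 0.046).

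The list did not move as one. *Ccng2*, an unconventional cyclin, fell by 0.82 after mianserin and by 0.86 after risperidone at 4 h, *Btg1* fell by 0.49 after mianserin and *Fbxo32*, a ubiquitin ligase of muscle atrophy, fell by 0.33 after tranylcypromine. *Bcl6* (0.82) and *Gadd45a* (0.50) rose after tranylcypromine at 4 h and *Sesn1* (0.74) after mianserin at 8 h. The median change of the 24 genes at 4 h was 0.03 after tranylcypromine, 0.02 after mianserin and -0.0057 after risperidone, against -0.0025, 0.0036 and 0.00055 over all probes.

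**Figure D5:**
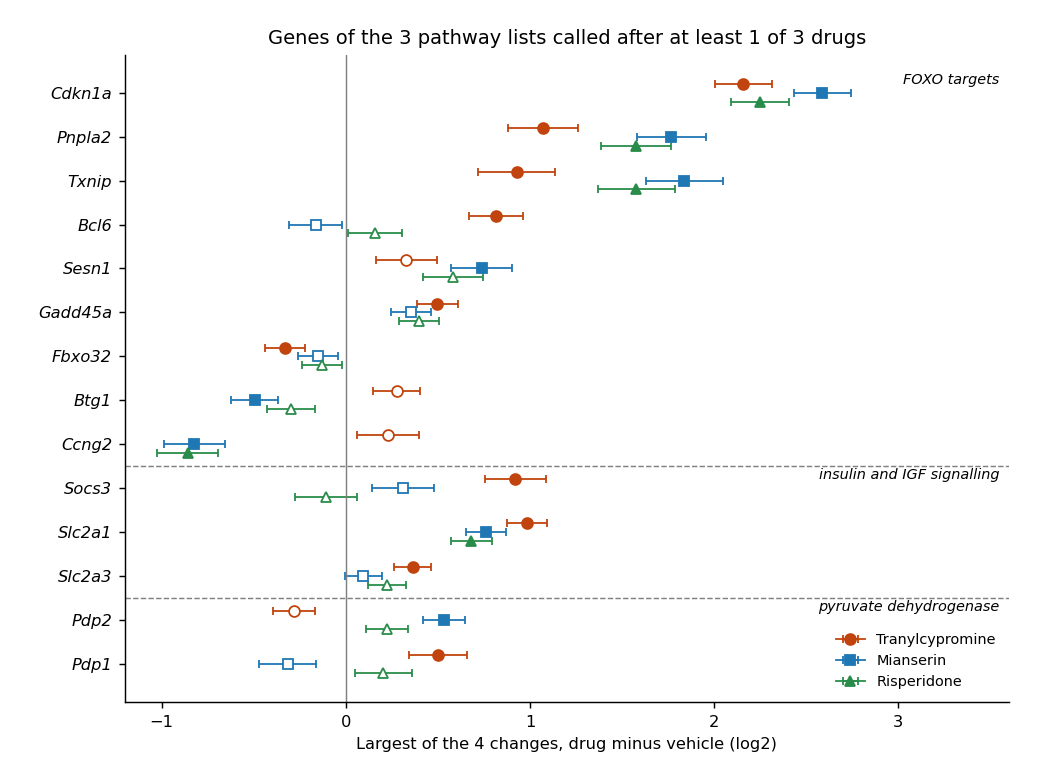
Largest of the 4 changes in log2 signal, drug minus vehicle, with limma's standard error, for each gene of the 3 pathway lists called after at least 1 of tranylcypromine (circles), mianserin (squares) and risperidone (triangles), with filled symbols where the F test was called. *Cdkn1a*, *Pnpla2* and *Txnip* are filled for all 3 drugs, and *Ccng2* lies at -0.82 after mianserin and -0.86 after risperidone.

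In the wider insulin and IGF list 31 of 35 genes had a named probe. Of the 31, 3 were called after tranylcypromine (1.59% of all probes), 1 after mianserin (3.26%) and 1 after risperidone (1.22%). Among probes above the median signal these shares were 3.69%, 8.6% and 3.2%, so the counts do not set this list apart. *Slc2a1*, the glucose transporter of the blood-brain barrier and glia, rose after tranylcypromine (0.98 at 4 h, adjusted p = 5.2e-12), mianserin (0.76 at 8 h, 4.4e-10) and risperidone (0.68 at 4 h, 3.6e-05). After tranylcypromine *Socs3*, a cytokine-induced inhibitor that also binds the insulin receptor, rose by 0.92 at 8 h and *Slc2a3*, the neuronal glucose transporter, by 0.36 at 4 h. No ligand, binding protein, AKT or kinase subunit gene of the list was called after any of the 9 drugs. Of 11 genes of the pyruvate dehydrogenase complex and its regulators, *Pdp1* rose after tranylcypromine (0.50 at 8 h) and *Pdp2* after mianserin (0.53 at 8 h), both of them phosphatases that oppose the PDK enzymes, and *Pdk1*, *Pdk2* and *Pdk3* were not called.

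Cell type markers moved at some of these times. Of 8 microglial markers 2 fell after tranylcypromine (*P2ry12*, -1.21 at 8 h, and *Cx3cr1*, -0.67 at 4 h) and 1 after mianserin (*P2ry12*, -1.26 at 8 h). At 8 h the mean log2 signal over the 8 markers was 10.14 to 10.43 after tranylcypromine, 10.20 to 10.42 after mianserin and 10.28 to 10.49 after risperidone, against 10.53 to 10.59 on saline and 10.56 to 10.78 on Tween 80 arrays. Of 7 oligodendrocyte markers *Opalin* fell after tranylcypromine (-1.26 at 8 h), where the list lay at 13.24 to 13.69, against 13.79 to 13.86 on saline and 13.76 to 13.85 on Tween 80 arrays.

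At 4 h the 12 endothelial markers averaged 9.57 to 9.69 after tranylcypromine, 9.69 to 9.75 after mianserin and 9.55 to 9.67 after risperidone, against 9.73 to 9.84 on saline and 9.76 to 9.90 on Tween 80 arrays. *Tek* fell after tranylcypromine (-0.85 at 4 h) and risperidone (-0.59 at 4 h), and *Esam* rose after tranylcypromine (0.48 at 8 h). The 9 astrocyte markers lay at 12.59 to 12.73, 12.58 to 12.71 and 12.41 to 12.68 after the same drugs at 4 h, against 12.47 to 12.67 on saline and 12.55 to 12.60 on Tween 80 arrays, and 1 of them, *Gjb6*, rose after tranylcypromine (0.56 at 8 h). Of the 9 neuronal markers *Pdyn* rose after tranylcypromine (0.74 at 8 h) and *Penk* after mianserin (0.58 at 2 h), and none of the 5 choroid plexus markers was called. The part of these cells in the changes of *Depp1*, *Pdk4* and *Irs2* was not tested.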

How the data were processed

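The authors deposited log2 signals of 45281 probes on 156 arrays in a pair of tables, one without normalization and one normalized. Their methods name BeadStudio for the raw data, the BeadArray R package, background subtraction, quantile normalization and z-scores, and the values of neither table are z-scores. Whether the table without normalization was background-subtracted is not given in the sources used here. The table without normalization was, less 2 probes that lacked a value, quantile normalized across the 156 arrays with limma 3.58.1 under R 4.3.3 (statmod 1.5.0). Each chip set was fitted alone with 1 mean for each drug and time and an intensity trend in eBayes. Drug arrays were compared with same-time vehicle by the moderated F test over 4 times and by the test of each time, with Benjamini-Hochberg adjustment over 45279 probes at a false discovery rate of 5%. Times within a drug, pairs of drugs, vehicle against naive and time in vehicle were tested in the same fits, and drug and its interaction with time in a two-way model of all arrays with chip set as a term.

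Gene names came from the annotation of the platform, in which 34883 probes had 1 symbol, 18 several and 10378 none. For the lists the probe of highest mean signal stood for a gene, and for likeness the probe of highest correlation. All probes of the 9 genes are given, with the 3 genes of most similar course for each called member and the called genes of the lists, at most 6 for each list and drug. The members and lists were chosen with earlier results of these data known. The number of arrays limits the precision, and detection p-values were not used here. The fits were tested on simulated data. Alternatives covered the normalization, the spread, chip and replicate blocks, the choice of vehicle, the test and fits without 1 replicate. Plots used Python 3.11.15 and matplotlib 3.10.9.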

Additional observations from a re-analysis of the deposited data

Results flagged for a closer look

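Within vehicle groups of 6 arrays, 160 checks for a single array far from the others found 13, where about 1 in 20 such checks does so by chance. In the vehicle of the first chip set *Irs1* reached 8.35 on saline replicate 2 at 8 h (others 7.85 to 8.02), 1 *Insr* probe stood at 11.3 on Tween 80 replicate 1 at 1 h (others at 11.5), 1 *Igf1r* probe at 8.68 on Tween 80 replicate 2 at 1 h, *Pdk4* at 9.59 on Tween 80 replicate 1 at 8 h (others 8.96 to 9.18), and 1 dim *Pik3r1* probe at 7.46 on saline replicate 2 at 1 h and at 7.15 on saline replicate 1 at 4 h.

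Over the 6 saline arrays of both chip sets, 2 *Insr* probes were high on saline replicate 4 at 1 h (11.8 and 8.90). The same *Igf1r* probe stood at 8.93 on saline replicate 5 at 2 h and at 8.08 on saline replicate 2 at 8 h. The dim *Foxo3* probes stood at 7.54 on saline replicate 6 at 2 h, at 7.49 on saline replicate 3 at 1 h and at 8.13 on saline replicate 4 at 8 h.

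The change of *Depp1* after risperidone differed between times (limma F test of 3 differences, adjusted p = 0.007), with 1.28 at 4 h and 0.04 at 8 h.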

How the results depend on the processing

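Of 8 calls of members over the 4 times, the 3 of *Depp1* stood under every setting tried. With each array scaled to its median, 2 members were called after tranylcypromine (0.612% of all probes) and 1 after mianserin (1.7%). The same scaling gave 1 after risperidone (0.426%), 1 after haloperidol (0.897%) and 0 for time in vehicle. One spread for both chip sets gave 2 after mianserin (1.46% of all probes), 1 after risperidone (0.599%), 1 after diazepam (14.7%) and 0 for time in vehicle. Chip as a fixed block gave 1 after haloperidol (0.146% of all probes), 0 for time in vehicle and 2 for the drug by time interaction. Chip as a random block gave 1 after clozapine (0.0773%). With the own vehicle alone 1 member was called after risperidone (0.733% of all probes). With vehicles of both chip sets 2 were called after tranylcypromine (0.961% of all probes), 2 after mianserin (2.5%) and 1 after risperidone (1.14%). The same setting called 3 after diazepam, where 29.5% of all probes were called, 4 after buspirone (21.3%) and 3 after hydroxyzine (20.9%). It had no term for chip set, so differences between the sets enter these changes. Leaving out 1 replicate at a time gave 2 to 3 members after mianserin (1.67% to 3.26% of all probes) and 1 to 2 after risperidone (0.671% to 1.24%). The methods' t-test held 58 of 720 member comparisons unadjusted, against 5.84% of all comparisons, and 5 after Benjamini-Hochberg adjustment (0.0201% of all), where limma called 13 (0.197% of all). Of the results on single genes under the alternatives, 530 kept their direction and side of the threshold or, for counts of drug pairs called, stayed close. Another 57 lost the call, 11 gained one, 4 turned and 5 counts of drug pairs moved. Of the counts of members called, 150 stayed close and 24 moved. The cause was not tested.

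The small change of *Depp1* at 8 h after risperidone (0.04) turned negative with Tween 80 alone as vehicle (-0.22), and, over fits without 1 replicate, ran between -0.090 and 0.13, with -0.090 without risperidone replicate 2, -0.013 without Tween 80 replicate 2 and -0.020 without saline replicate 3. The replicate block was for numbers whose arrays did not deviate together (mean correlation -0.0064, against 0.0033 for other numbers). It left 3 members called after tranylcypromine (1.53% of all probes), 3 after mianserin (3.22%) and 2 after risperidone (1.22%). It ended no call over the 4 times. Without the tranylcypromine array of 8 h, replicate 2, an alternative chosen after seeing the data, 3 members were called (1.13% of all probes). The change of *Irs2* at 8 h was then 1.01.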
